A study of Mus musculus with 8 samples.

Results

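The epidermal growth factor (EGF) receptor system was examined through 8 of the 54532 genes in the deposited table, taken by gene symbol. They were 5 ligands (Areg, Ereg, Hbegf, Tgfa and Btc), the receptors Egfr and Erbb3, and the feedback inhibitor Errfi1. Whole livers of 4 METTL3-HKD and 4 METTL3-Flox mice were sequenced at 6 h of reperfusion that followed 1 h of ischemia. METTL3-HKD mice carried METTL3 flox/- with Alb-iCre, a recombinase expressed from the albumin promoter and therefore aimed at hepatocytes, and METTL3-Flox mice were METTL3 flox/flox animals from the same litters. The METTL3-HKD mice were heterozygous and exon 4 is the part flanked by loxP sites, so METTL3 was to be reduced and not removed. Every liver had been through the same partial warm ischemia, and no sham liver was analysed here. The sex and age of these mice and the lobe sequenced are not given in the sources used here.

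The ligands of this system are made as membrane-anchored precursors, and cutting by ADAM proteases releases the active factor. Ligand binding to EGFR, ERBB3 or ERBB4 pairs receptors of the family, ERBB2 included as a partner, and the tyrosine kinase activity of the pair feeds the Ras-ERK cascade, which in turn raises inhibitors of the same pathway, among them ERRFI1 (also called MIG6). In the liver EGFR is a major growth factor receptor of hepatocytes, and its ligands are known for their part in regeneration and wound repair.

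In METTL3-HKD livers the ligands were higher and the receptors and Errfi1 did not change past the test. Areg, Ereg, Hbegf and Btc were upregulated (adjusted p below 0.05 with at least a doubling, 1 on the log2 scale), Tgfa passed the adjusted p at a log2 fold change of 0.69, and all 5 lay higher in every METTL3-HKD than in every METTL3-Flox liver. Thus 4 of the 8 genes were upregulated, against 4.70% of the 16645 genes tested, and 0 were downregulated, against 1.52%. With FPKM scaled instead to the reads on genes the same counts held, against 6.25% and 0.798% of genes. At any fold change, 5 of 8 were higher past the adjusted p, against 9.05% of genes, and 0 were lower, against 6.63%. The groups were separate with METTL3-HKD above in 5 of 8, against 12.7% of genes, and with METTL3-HKD below in 0, against 9.95%. Testing required a mean of 0.1 FPKM over all livers. Areg and Ereg averaged 0 and 0.0692 FPKM in METTL3-Flox livers and met this minimum only through the METTL3-HKD livers. In these counts Areg and Ereg could therefore only come out higher. The median log2 fold change was 2.56 over the 5 ligands and −0.0028 over all genes tested. These tests compared log2(FPKM + 0.1) with limma, Benjamini-Hochberg adjusted over all genes tested. FPKM, which the authors scaled to a size for each library and to gene length in kilobases, allow levels to be compared between genes.

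The libraries held 15961479 to 18434488 reads on genes in METTL3-HKD and 15861245 to 17262991 in METTL3-Flox mice, rebuilt from FPKM and gene length. The library sizes implied by the FPKM were 18063236 to 20114825 in METTL3-HKD and 14210943 to 16158035 in METTL3-Flox mice. These sizes did not overlap between the groups, while the reads on genes did. Mettl3 itself, the targeted gene, ranged from 1.17 to 1.56 FPKM in METTL3-HKD and from 1.16 to 1.84 FPKM in METTL3-Flox livers, which overlap (exact permutation test, p = 0.371), so the level of the whole gene does not check the genotype labels. Of the 8 hepatocyte markers, 2 were lower past the adjusted p (Hnf4a and F2), against 6.63% of all genes tested, and 0 were higher, against 9.05%. All 8 had a log2 fold change below 0, with a median of −0.42. Their summed level was 22235 to 32585 FPKM in METTL3-HKD and 28843 to 33148 FPKM in METTL3-Flox livers. Most of that sum was Alb, which averaged 18252 and 18426 FPKM. In whole tissue, fewer cells of a type and less RNA per cell cannot be told apart.

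Promoter sequence is shown for the ligands Areg, Btc and Tgfa, from RefSeq windows on GRCm38.p6, and for Errfi1, which differ in how they moved. No window was available for Ereg, Hbegf or Erbb3, so the upregulated ligands Ereg and Hbegf were not scanned for motifs. Each line gives the 120 bases before the start, 5′ to 3′ on the gene's strand, with matches to the cyclic AMP response element (CRE, TGACGTCA), its 5-base core TGACG and the TATA box (TATAAA) in capitals. The Areg stretch is chr5:91139479-91139598 (plus strand), the Btc stretch chr5:91402995-91403114 (minus strand), the Tgfa stretch chr6:86195102-86195221 (plus strand), and the Errfi1 stretch, before the second of its starts, chr4:150854950-150855069 (plus strand).
Areg: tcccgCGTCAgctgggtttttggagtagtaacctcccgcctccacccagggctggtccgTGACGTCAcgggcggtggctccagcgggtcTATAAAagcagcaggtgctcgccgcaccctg
Btc: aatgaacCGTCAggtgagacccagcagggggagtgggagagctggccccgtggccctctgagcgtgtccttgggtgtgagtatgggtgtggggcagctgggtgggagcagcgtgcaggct
Tgfa: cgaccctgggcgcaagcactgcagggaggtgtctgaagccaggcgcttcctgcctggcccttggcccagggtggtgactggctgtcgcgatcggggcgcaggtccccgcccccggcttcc
Errfi1: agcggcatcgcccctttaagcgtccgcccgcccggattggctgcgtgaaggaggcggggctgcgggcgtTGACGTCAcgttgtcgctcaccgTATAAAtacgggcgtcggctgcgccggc
Areg held the whole CRE 61 bases before its start and a TATA box 31 bases before it, and Errfi1 held both at 51 and 28 bases. So the same pair of motifs preceded the ligand without a read in METTL3-Flox livers and the inhibitor that had the highest level of the 8 genes in both groups. Areg had a further CRE core at 115 bases, Btc had a single core at 113 bases, and Tgfa, like the first Errfi1 start, had none of these motifs in 250 bases. Among windows not printed, that of the ligand gene Epgn held a single core and a TATA box, and those of Egfr and the ligand gene Nrg4 held none. On both strands, and counting the first window of each of 27025 symbols, the CRE occurred in 1.62% of 250-base promoters, its core (which overlaps the CRE) in 17.9% and the TATA box in 13.0%. Among the 10978 windows of tested genes the shares were 2.59% for the CRE, 25.96% for its core and 7.28% for the TATA box, so the CRE was more frequent and the TATA box less frequent there. AP-1 sites (TGANTCA, 6.87% of promoters), the NF-kB motif (3.75%) and the serum response element (1.40%) were not found in the 250 bases of these 4 windows. A match is a description of letters and was not tested for binding.

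Areg (ENSMUSG00000029378) encodes amphiregulin, an EGFR ligand induced in injured epithelia. In GRCm38 it occupies 91139599 to 91148432 of chromosome 5. Here and below, values of single livers are given in the order of replicates 1 to 4. The METTL3-HKD livers gave 1.43, 1.38, 0.501 and 0.620 FPKM, on 35, 31, 11 and 14 reads. No METTL3-Flox liver had a read. Against a floor of 3 reads per library, the METTL3-HKD mean of 0.983 ± 0.491 FPKM (SD, n = 4) was at least 6.12-fold higher. The fitted log2 fold change of 3.32 depends on the pseudocount (adjusted p = 0.00207 from limma, exact permutation test p = 0.0286, the smallest that 4 against 4 livers allow).
Ereg (ENSMUSG00000029377) encodes epiregulin, which binds EGFR and ERBB4, and lies just upstream of Areg from 91074622 to 91093646. The METTL3-HKD livers gave 2.88, 1.28, 0.241 and 1.60 FPKM, against 0.0170, 0.120, 0.0797 and 0.0602 FPKM in the METTL3-Flox livers. METTL3-HKD liver 3 lay nearest to the METTL3-Flox range without reaching it, and the METTL3-HKD values spanned 11.9-fold, the widest range of the 5 ligands. The means were 1.502 ± 1.09 and 0.0692 ± 0.0428 FPKM (SD, n = 4 each), a difference of 21.7-fold, or 2.92 on the log2 scale (SE 0.589, limma adjusted p = 0.0153). The METTL3-Flox mean rests on 18 reads in all, and with voom on the rebuilt reads the adjusted p was 0.0518, so the call was lost.
Hbegf (ENSMUSG00000024486) encodes the heparin-binding EGF-like growth factor, a ligand of EGFR and ERBB4. Levels in METTL3-HKD livers were 4.11, 3.35, 1.24 and 2.24 FPKM, against 0.356, 0.235, 0.499 and 0.314 FPKM in the METTL3-Flox livers. The groups were well apart, since the lowest METTL3-HKD liver was more than double any METTL3-Flox liver. The means of 2.73 ± 1.26 and 0.351 ± 0.111 FPKM (SD, n = 4 each) differed 7.79-fold, or 2.56 on the log2 scale (SE 0.350, limma adjusted p = 0.00444). Hbegf was the only one of the 8 genes that was upregulated under each of the 16 alternatives.

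Btc (ENSMUSG00000082361) encodes betacellulin, a ligand of EGFR and ERBB4, on chromosome 5 from 91357261 to 91402994. In METTL3-HKD livers Btc reached 1.41, 1.52, 1.26 and 1.10 FPKM, against 0.343, 0.493, 0.466 and 0.632 FPKM in the METTL3-Flox livers. METTL3-HKD livers lay within 1.39-fold of each other, the narrowest range of the 5 ligands. The means of 1.32 ± 0.184 and 0.483 ± 0.119 FPKM (SD, n = 4 each) differed 2.73-fold, or 1.30 on the log2 scale (SE 0.191, limma adjusted p = 0.00565).
Tgfa (ENSMUSG00000029999) encodes transforming growth factor alpha, a hepatocyte growth factor of the regenerating liver, and lies on chromosome 6 from 86195223 to 86275719. It was the most abundant ligand in every liver, at 10.4, 7.80, 7.42 and 6.43 FPKM in the METTL3-HKD livers, against 5.66, 3.80, 5.02 and 5.08 FPKM in the METTL3-Flox livers. The highest METTL3-Flox liver came close to the lowest METTL3-HKD liver without reaching it. The means of 8.02 ± 1.71 and 4.89 ± 0.784 FPKM (SD, n = 4 each) differed 1.64-fold, or 0.69 on the log2 scale (SE 0.170, limma adjusted p = 0.0284). The adjusted p was lost when any 1 of 5 livers was left out (METTL3-HKD 1 or 2, or METTL3-Flox 2, 3 or 4), and ranged from 0.0305 to 0.0668 over the 8 omissions.
The exact permutation test gave p = 0.0286 for each of the 5 ligands. Exons of Ereg and Tgfa share 3.42% and 1.82% of their bases with antisense genes that averaged at most 0.0991 FPKM in either group.

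**Figure D1:**
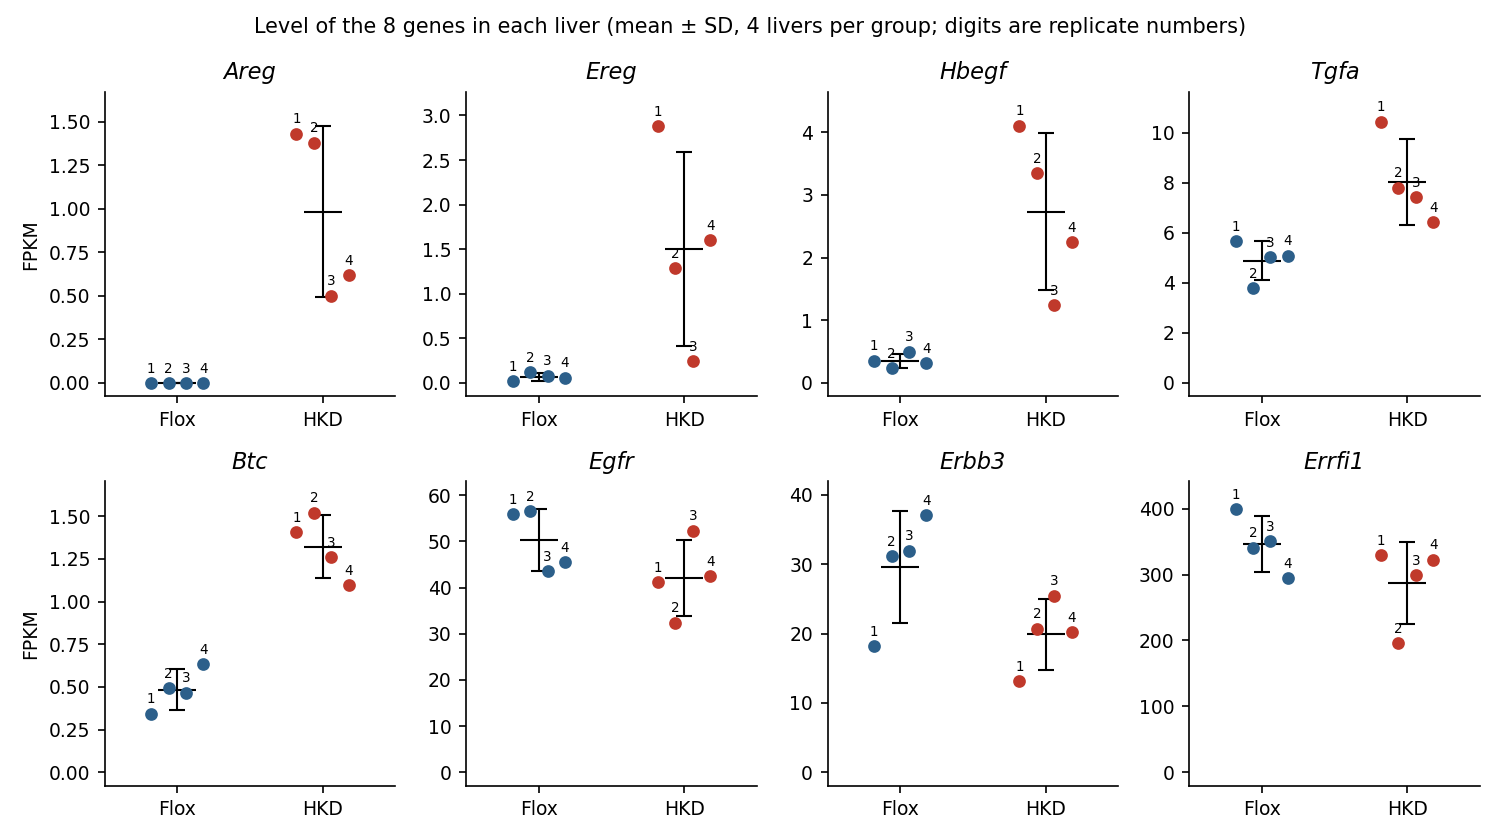
FPKM of each of the 8 genes (vertical axes, linear, each panel with its own scale) in the 4 METTL3-Flox (blue) and 4 METTL3-HKD (red) livers. Points are livers marked by replicate number, and black bars give the mean and SD. The groups are separate for the 5 ligands and overlap for Egfr, Erbb3 and Errfi1.

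Summed over the 5 ligands, the METTL3-HKD livers reached 20.3, 15.3, 10.7 and 12.0 FPKM, against 6.38, 4.64, 6.06 and 6.09 FPKM in the METTL3-Flox livers. Tgfa made up 84.2 ± 3.14% (SD, n = 4) of that sum in METTL3-Flox mice and 56.4 ± 8.89% (SD, n = 4) in METTL3-HKD mice. The other 4 ligands together came to 0.903 ± 0.152 FPKM in METTL3-Flox and 6.54 ± 2.81 FPKM in METTL3-HKD mice (SD, n = 4 each). Egfr mRNA exceeded the summed ligand mRNA 8.89 ± 2.29 times in METTL3-Flox and 3.15 ± 1.36 times in METTL3-HKD livers (SD, n = 4 each). These sums and ratios are descriptions and carry no test.

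**Figure D2:**
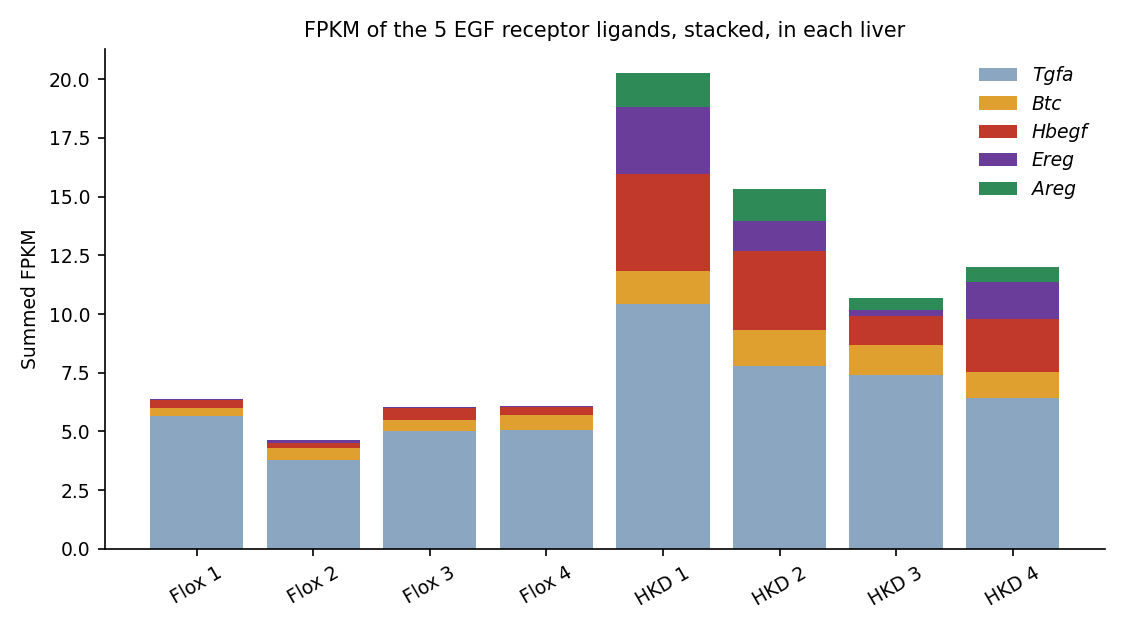
Summed FPKM of the 5 EGF receptor ligands (vertical axis) in each liver, stacked by gene. METTL3-Flox livers reach 4.64 to 6.38 FPKM and are mostly Tgfa, while METTL3-HKD livers reach 10.7 to 20.3 FPKM with larger shares of the other ligands.

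The remaining ligands of the ERBB family were taken from a list of 6 genes, of which 3 reached the minimum of 0.1 FPKM for testing. Epgn and Nrg1 averaged 0 and 0.0352 FPKM in METTL3-Flox livers and met this minimum only through the METTL3-HKD livers. Once tested, Epgn and Nrg1 could therefore only come out higher. Epgn encodes epigen, an EGFR ligand next to Ereg on chromosome 5. The METTL3-HKD livers gave 0.770, 2.01, 0.0613 and 1.22 FPKM, and every METTL3-Flox liver had 0 reads, so its mean of 1.01 ± 0.815 FPKM (SD, n = 4) was at least 9.40-fold higher. METTL3-HKD liver 3 had 2 reads of Epgn, which is below the floor of 3. Epgn was called (adjusted p = 0.0242 from limma), but the adjusted threshold held in only 7 of the 15 alternatives that tested it. Leaving out METTL3-HKD liver 1, 2 or 4 or METTL3-Flox liver 2, 3 or 4 ended the call (adjusted p from 0.0552 to 0.0642).
Nrg4 encodes neuregulin 4, a ligand of ERBB4 made chiefly by fat. The METTL3-HKD livers gave 8.40, 3.35, 5.70 and 5.05 FPKM, against 2.20, 2.09, 1.52 and 2.48 FPKM in the METTL3-Flox livers. The groups did not overlap, and Nrg4 was upregulated by 1.35 on the log2 scale (SE 0.262, limma adjusted p = 0.0135). It shares 6.06% of its exon bases with Fbxo22 on the opposite strand, at 23.0 and 25.1 FPKM, so its level is uncertain where the counting ignored strand.
Nrg1, which encodes the ERBB3 and ERBB4 ligand neuregulin 1, averaged 0.177 ± 0.0962 FPKM in METTL3-HKD and 0.0352 ± 0.0243 FPKM in METTL3-Flox mice (SD, n = 4 each) without passing the test (adjusted p = 0.0973 from limma), although the groups did not overlap. With voom on the rebuilt reads Nrg1 passed both thresholds, at 2.34 on the log2 scale (limma adjusted p = 0.0383), and with a pseudocount of 1 FPKM it was at 0.18 (limma adjusted p = 0.122). Egf, the gene of EGF itself, averaged 0.0333 and 0.0373 FPKM. Nrg2 and Nrg3 were at or near 0, with means of at most 0.00571 FPKM.

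Egfr (ENSMUSG00000020122) encodes the receptor of these ligands and lies on chromosome 11 from 16752203 to 16918158. Its METTL3-HKD values were 41.2, 32.4, 52.3 and 42.5 FPKM, against 55.8, 56.5, 43.5 and 45.5 FPKM in the METTL3-Flox livers. METTL3-HKD liver 3 lay inside the METTL3-Flox range, and the other METTL3-HKD livers lay below it. The means of 42.1 ± 8.16 and 50.3 ± 6.79 FPKM (SD, n = 4 each) gave a log2 fold change of −0.27 with a 95% confidence interval from −0.62 to 0.08 (adjusted p = 0.266 from limma, exact permutation test p = 0.143).
Erbb3 (ENSMUSG00000018166) encodes a receptor with little kinase activity of its own that signals through its partners, and lies on chromosome 10 from 128567523 to 128589652. Across METTL3-HKD livers it measured 13.1, 20.7, 25.5 and 20.2 FPKM, against 18.2, 31.2, 31.98 and 37.1 FPKM in the METTL3-Flox livers. Only METTL3-Flox liver 1 reached into the METTL3-HKD range. The log2 fold change was −0.56 with a 95% confidence interval from −1.14 to 0.01 (adjusted p = 0.163 from limma, exact permutation test p = 0.114), and without METTL3-Flox liver 1 it was −0.78 (adjusted p = 0.0440 from limma), which passed.
Erbb2, the partner receptor without a ligand of its own, was low at 0.406 ± 0.0503 and 0.259 ± 0.0890 FPKM (SD, n = 4 each; adjusted p = 0.155 from limma). Erbb4 averaged 0.0331 and 0.0378 FPKM and was not tested.
Errfi1 (ENSMUSG00000028967), on chromosome 4 from 150853919 to 150868892, encodes the inhibitor that binds the EGFR kinase domain and blocks it. It was the most abundant of the 8 genes, at 329.6, 196, 299 and 323 FPKM in the METTL3-HKD livers, against 399, 341, 351 and 295 FPKM in the METTL3-Flox livers. METTL3-HKD liver 2 was the lowest, and the other METTL3-HKD livers lay within the METTL3-Flox range. The means of 287 ± 61.9 and 346 ± 42.7 FPKM (SD, n = 4 each) gave a log2 fold change of −0.29 with a 95% confidence interval from −0.71 to 0.12 (adjusted p = 0.305 from limma, exact permutation test p = 0.171). Of these 3 genes, only the interval of Erbb3 extends beyond a 2-fold decrease, and the highest upper limit, that of Errfi1, was 0.12 on the log2 scale.

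**Figure D3:**
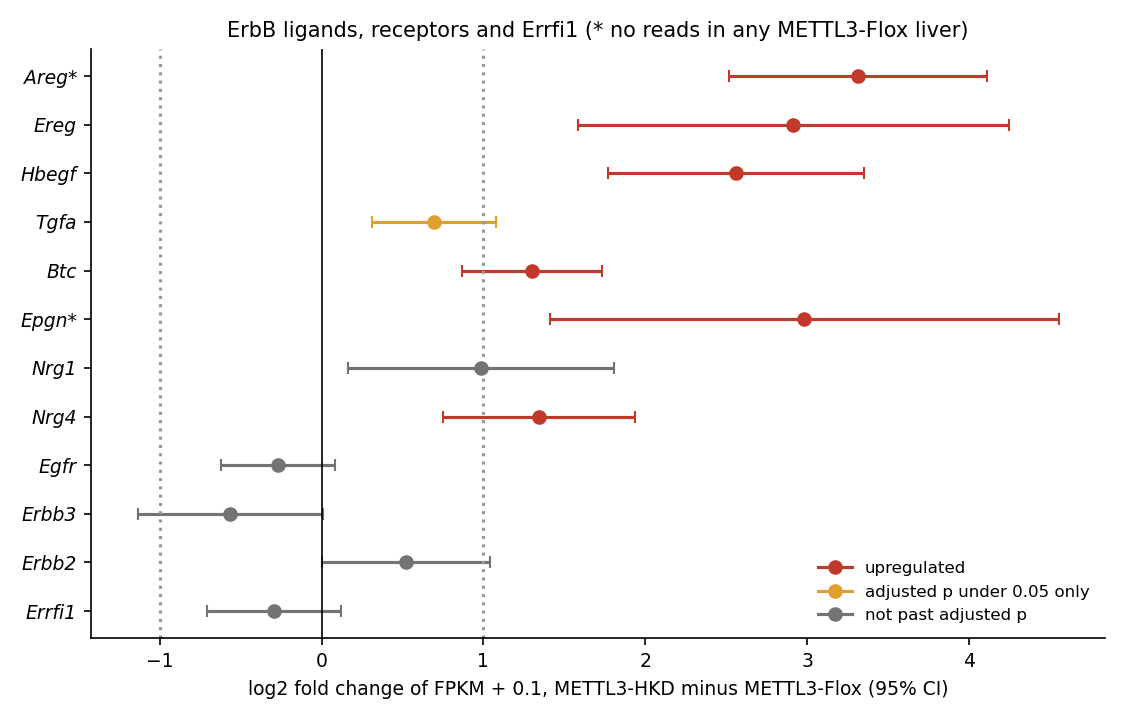
Log2 fold change of FPKM + 0.1, METTL3-HKD minus METTL3-Flox (horizontal axis), with its 95% confidence interval from limma, for the tested ErbB ligands, receptors and Errfi1. Red marks upregulated genes, yellow an adjusted p under 0.05 alone and grey neither, and dotted lines mark a log2 fold change of 1 and −1. The ligand intervals lie above 0, and those of Egfr, Erbb3 and Errfi1 include 0. Asterisks mark Areg and Epgn, which had no reads in METTL3-Flox livers. Areg, Ereg, Epgn and Nrg1 met the minimum for testing only through METTL3-HKD livers.

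In order of mean level, METTL3-Flox livers ran from Errfi1 through Egfr, Erbb3 and Tgfa to Btc, Hbegf and Ereg. Among these neighbours Btc and Hbegf had overlapping livers and the others did not. Areg, without a read, could not be placed against Ereg, since 3 reads of Areg stand for 0.161 FPKM, above every METTL3-Flox value of Ereg. METTL3-HKD livers had the same first 4 genes, followed by Hbegf, Ereg, Btc and Areg. There each of the last 4 genes overlapped its neighbour, while Tgfa lay above all of them and below Erbb3 in every liver.

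Areg, Ereg, Epgn and Btc share a stretch of chromosome 5, and the 22 listed genes that start within 500 kb of the Areg start were examined for that reason. Of these, 12 were tested, 9 were upregulated and 0 were downregulated, against 4.70% and 1.52% of all genes tested. The 9 include Areg, Ereg and Btc, around which the window was drawn, and Epgn, and without these 4 ligands 5 of 8 were upregulated. Areg, Ereg, Epgn and Cxcl3 averaged under 0.1 FPKM in METTL3-Flox livers, so only the METTL3-HKD livers brought them into the test. The ligands Epgn, Ereg and Btc start 112 kb and 65.0 kb before and 218 kb after Areg, by the lower coordinate of each gene. Their neighbours include genes of neutrophil-attracting chemokines, of which Cxcl2 (log2 fold change 6.38, adjusted p = 0.00190 from limma), Cxcl3 (5.14, adjusted p = 0.0105) and Cxcl5 (3.34, adjusted p = 0.0297) were upregulated.
Not every tested gene there was called. Cxcl1, of the same chemokine family, had 58.0 ± 28.0 and 55.3 ± 41.5 FPKM (SD, n = 4 each; adjusted p = 0.783 from limma), Mthfd2l, a mitochondrial folate enzyme between Cxcl2 and Epgn, had a log2 fold change of 0.41 (adjusted p = 0.222), and the platelet chemokine gene Pf4 1.24 (adjusted p = 0.107). The other genes called were Ppbp, a second platelet chemokine gene, at 1.82 and the noncoding Gm19619 at 1.29. Neighbouring genes are not independent of each other, and no test of the region as a whole was made.

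**Figure D4:**
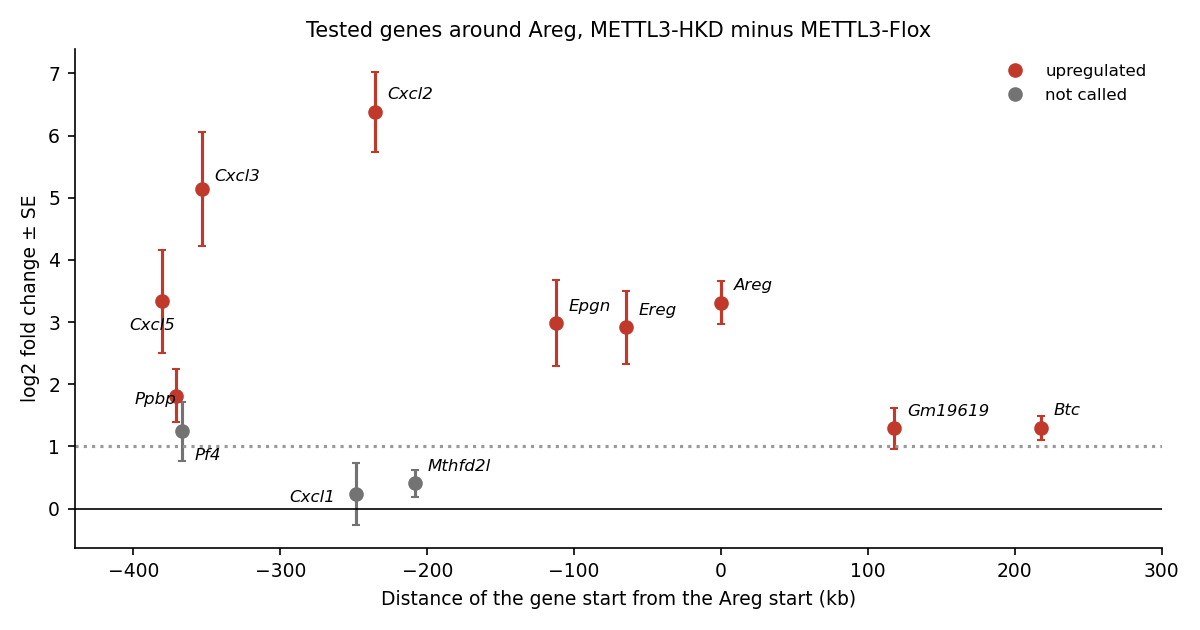
Log2 fold change with its standard error (vertical axis) of the 12 tested genes around Areg, against the distance of each gene start from the Areg start in kb (horizontal axis). Red marks the 9 upregulated genes and grey the 3 not called, Pf4, Cxcl1 and Mthfd2l, which lie between called genes.

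Beyond ligands and receptors, the pathway was read from 4 further lists, with 4.70% of all genes tested upregulated and 1.52% downregulated. Of 11 tested genes of ligand shedding and trafficking, 2 were upregulated and 0 downregulated, with a median log2 fold change of 0.47. At any fold change, 4 were higher and 1 lower past the adjusted p, against 9.05% and 6.63% of all genes tested. Adam17, the main sheddase of Areg, Hbegf and Tgfa precursors, had 4.53 ± 0.427 and 4.06 ± 0.377 FPKM (SD, n = 4 each; adjusted p = 0.365 from limma), and Adam10, the main sheddase of Btc, also did not pass (adjusted p = 0.465). Rhbdf1, which encodes a partner of ADAM17 (iRhom1), was higher at a log2 fold change of 0.87 (adjusted p = 0.0114), Adam8, a protease of leukocytes, was upregulated at 4.34 (adjusted p = 0.00739), and Tspan15, a tetraspanin partner of ADAM10, was lower at −0.83 (adjusted p = 0.0302).
Of 17 tested adaptor and relay genes, 0 were upregulated and 0 downregulated. At any fold change, 4 were higher and 1 lower past the adjusted p, against 9.05% and 6.63% of all genes tested, with a median of 0.01. The genes with the smallest adjusted p were Nras, a Ras GTPase, at 0.52 (adjusted p = 0.0114 from limma), Araf, a Raf kinase, at −0.55 (adjusted p = 0.0126) and Sos2, a Ras exchange factor, at 0.67 (adjusted p = 0.0152). Without adjustment, 5 were higher and 3 lower at p under 0.05, against 2785 and 2520 of the 16645 genes.
Of 19 tested inhibitors of the receptors and of Ras-ERK signalling, 4 were upregulated and 0 downregulated, with a median of 0.15. They were Socs5 (log2 fold change 1.04, adjusted p = 0.00412 from limma), which promotes EGFR breakdown, Spred1 (1.16, adjusted p = 0.0135) and Spry2 (1.34, adjusted p = 0.0161), which restrain Ras-ERK signalling, and Spry4 (1.14, adjusted p = 0.0486). At any fold change, 5 were higher and 1 lower past the adjusted p, against 9.05% and 6.63% of all genes tested. The CBL family of ubiquitin ligases was divided. Cblc was lower at −0.59 (adjusted p = 0.0174 from limma) and Cbl higher at 0.73 (adjusted p = 0.0493). Cblb, at 0.59, did not pass (adjusted p = 0.0755).
Of 18 tested genes known to respond to ERK, 14 were upregulated and 0 downregulated, with a median of 2.28. Egr2, Egr3 and Etv4 averaged 0.0711, 0.0110 and 0.0649 FPKM in METTL3-Flox livers and met the minimum for testing only through the METTL3-HKD livers. In this count and median they could therefore only come out higher. Egr1 (log2 fold change 2.79), Fos (4.04) and Dusp4 (2.64) had the smallest adjusted p, each 0.00112 from limma. Several of these genes also answer to other stress kinases.

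**Figure D5:**
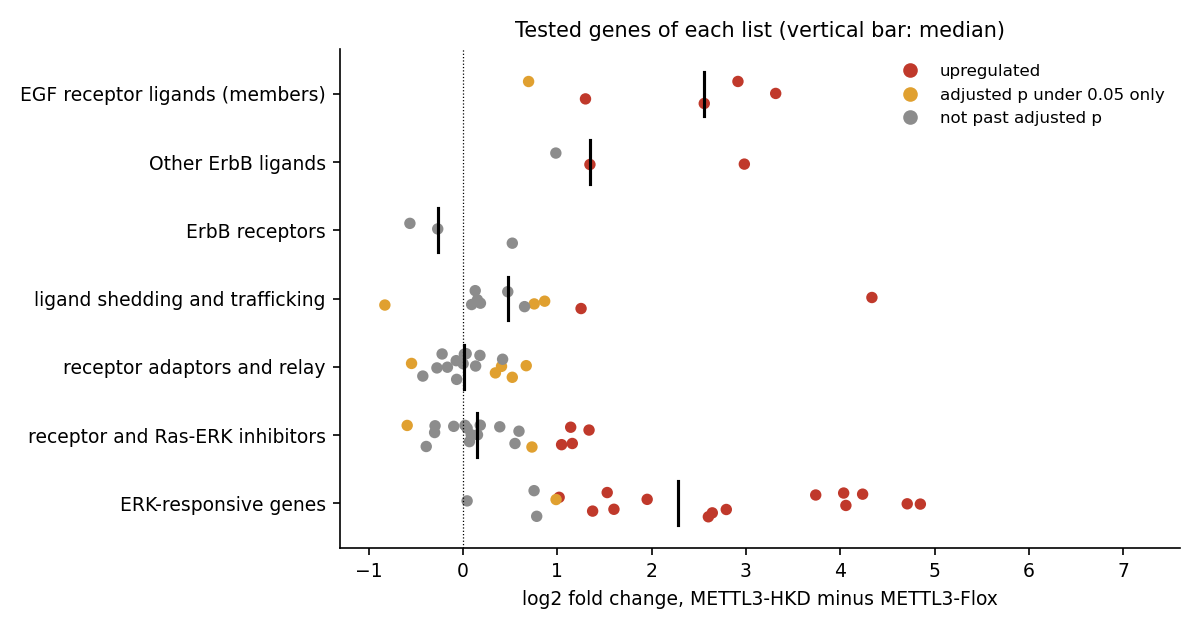
Log2 fold change, METTL3-HKD minus METTL3-Flox (horizontal axis), of each tested gene in 7 lists, with the median of each list as a vertical bar. Red marks upregulated genes, yellow an adjusted p under 0.05 alone and grey neither. The ligand and ERK-responsive lists have medians of 2.56 and 2.28, and the receptor and relay lists have medians of −0.27 and 0.01. Areg, Ereg, Epgn, Nrg1, Spred3, Egr2, Egr3 and Etv4 met the minimum for testing only through METTL3-HKD livers and could only come out higher.

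For the upregulated members, the tested genes with the most similar pattern were found by the mean absolute difference of log2(FPKM + 0.1), centred on each gene's mean over the 8 livers. Nearest to Areg were Aloxe3 (0.174), Gadd45a (0.177) and Gm18734 (0.203). Nearest to Ereg were Tnc (0.291), Fam71f2 (0.326) and Hba-a2 (0.329). Nearest to Hbegf were Tnfrsf12a (0.194), Il33 (0.195) and 3300005D01Rik (0.223), and nearest to Btc were Rnf24 (0.0987), Slc22a5 (0.111) and Peg10 (0.119). Among them, Gadd45a is a gene of growth arrest and DNA damage, Tnc encodes the matrix protein tenascin C, Tnfrsf12a the receptor of the cytokine TWEAK, Il33 an alarmin cytokine and Slc22a5 a carnitine transporter. All 12 were themselves upregulated, which follows largely from a measure that keeps the size of the group difference. By the same measure, genes with small group differences lie close together. Among the 8 genes, Errfi1 and Egfr were the closest pair (0.171), followed by Btc and Tgfa (0.324) and by Hbegf and Areg (0.384), while Areg and Ereg, neighbours on the chromosome, differed by 0.563.

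Neutrophil markers were higher along with the ligands, while lists of other cell types were higher in part, lower in part or without a call. All 8 neutrophil markers were upregulated, against 4.70% of all genes tested. Ly6g, which averaged 0.0374 FPKM in METTL3-Flox livers, met the minimum for testing only through the METTL3-HKD livers. The 8 markers summed to 1630, 383, 333 and 549 FPKM in the METTL3-HKD livers, against 13.1 to 44.9 FPKM in METTL3-Flox livers. METTL3-HKD liver 1 was highest in neutrophil markers and in Areg, Ereg, Hbegf and Tgfa, liver 3 was lowest in neutrophil markers and in Areg, Ereg and Hbegf, and Ereg ranked the 4 livers in the same order as the neutrophil sum. Liver 2, second lowest in neutrophil markers, was second highest in Areg, Hbegf and Tgfa and highest in Btc. Without METTL3-HKD liver 1, Areg, Ereg, Hbegf and Btc were still upregulated. The METTL3-HKD livers that remain, at 383, 333 and 549 FPKM, still lay above every METTL3-Flox liver in neutrophil markers. That omission therefore does not separate ligand levels from neutrophil content.
Of 6 tested bile duct markers, 4 were upregulated, with a summed level of 372, 196, 124 and 198 FPKM in METTL3-HKD livers, against 56.6 to 82.9 FPKM in METTL3-Flox livers, most of it Spp1, which other cells also make. Of 4 platelet markers 1 was upregulated (3.10 to 10.3 against 1.07 to 3.32 FPKM summed), and of 3 mesothelial markers 1 (1.02 to 4.99 against 0.627 to 1.36 FPKM summed). Each of these counts is a single gene, against the same share of 4.70%.
Of 7 Kupffer cell and macrophage markers, 2 were downregulated, Clec4f and Timd4, against 1.52% of all genes tested, and 0 upregulated, against 4.70%. Their summed level was 56.2 to 115 FPKM against 104 to 231 FPKM. The endothelial list had 0 of 6 genes called and overlapping sums (53.9 to 64.9 against 55.9 to 64.7 FPKM). The stellate list had 1 of 6 upregulated, a single gene against 4.70% of all genes tested, with overlapping sums (32.4 to 45.8 against 29.1 to 45.0 FPKM). Most of the stellate sum was Dcn, which averaged 25.9 and 24.7 FPKM. There Des was upregulated, while Lrat was lower at −0.88 (adjusted p = 0.0265 from limma). Lrat lay lower in every METTL3-HKD than in every METTL3-Flox liver. Lymphoid (5.16 to 7.14 against 5.90 to 7.06 FPKM), B cell (0.369 to 0.845 against 0.415 to 0.716 FPKM) and mast cell lists (0 to 0.723 against 0 to 0.264 FPKM) had 0 genes called. Only 3 of 7, 2 of 4 and 1 of 5 of their genes reached the minimum for testing. Most of the lymphoid sum was Rora, at 4.84 and 5.31 FPKM on average, so these lists say little about such cells. The part of these cell types in the ligand levels was not tested.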

How the data were processed

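Liver mRNA of 8 mice was measured, and groups follow the sample titles. The authors deposited FPKM per gene for 54532 genes, scaled between libraries before deposition, with gene lengths. The labels name GRCm38 (mm10) and a SMARTER mRNA-Seq kit, and the aligner, counter, annotation release and strand setting are not given in the sources used here. FPKM multiplied by gene length fell on whole multiples of 1 step per library (within 0.05 of a whole number for 100% of non-zero values), from which reads were rebuilt. Read floors cover counting error only.

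Genes averaging 0.1 FPKM or more over the livers (16645) were tested on log2(FPKM + 0.1) with limma 3.58.1 (lmFit, eBayes with trend, two-sided, Benjamini-Hochberg) in R 4.3.3. Genes averaging under 0.1 FPKM in METTL3-Flox livers were tested only through the METTL3-HKD livers, so they could only come out higher. Upregulated genes of this kind in the counts included Areg, Ereg, Epgn, Cxcl3, Egr2, Egr3, Etv4 and Ly6g. Those that were not called included Nrg1 and Spred3. The thresholds are those of the study. Members were also compared by exact permutation of the 4 against 4 livers (two-sided, scipy 1.17.1). The fit was checked on simulated data. Exon overlaps use GENCODE M21, and promoters RefSeq. Of the listed pathway genes, Nrdc had no row of that symbol.

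The 8 genes, the lists and the naming rule were chosen with earlier results of these data known. Named were all 8 genes, the other ErbB ligands and receptors, up to 3 genes per pathway list by smallest p, the 3 nearest genes to each upregulated member, tested genes within 500 kb of Areg, and marker lists. Adam10, Adam17, Spry4, Cbl, Cblb, Cblc, Spp1, Dcn, Lrat, Rora and the members of lists named beside their counts were added after their values were seen. The labels give no batch.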

Additional observations from a re-analysis of the deposited data

Results flagged for a closer look

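Of 22 groups of 4 livers checked for the 8 genes and Epgn, Nrg1, Nrg4 and Erbb2, 1 held a value far from the rest. Erbb2 had 0.391 FPKM in METTL3-Flox liver 3, against 0.203 to 0.226 FPKM in the other METTL3-Flox livers, a gap of 0.878 of the group's range where 0.829 is the limit. Chance alone gives about 1 such group in 20. The cause was not tested.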

How the results depend on the processing

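Of the 8 genes, 4 were upregulated with the settings above and after omission of any 1 liver. With a pseudocount of 1 FPKM 2 were (Ereg and Hbegf), since that pseudocount shrinks the fold of low genes (Areg 0.95 and Btc 0.65 on the log2 scale, both past the adjusted p), and with a minimum mean of 1 FPKM 1 was (Hbegf), among the 5 that were tested. With voom on the rebuilt reads 3 were, and Ereg missed the threshold at 4.07 on the log2 scale (limma adjusted p = 0.0518). None of the 8 genes was downregulated or changed direction under any of the 16 alternatives. With each liver left out in turn, the log2 fold change of Tgfa ranged from 0.56 to 0.79 and that of Erbb3 from −0.78 to −0.38. With the replicate block, Erbb3 kept −0.56 and passed (adjusted p = 0.0399 from limma), but the numbers do not pair the livers (correlations of same-numbered deviations from −0.0838 to 0.0711 over 4 pairs), and the block changed no other call among the 8. Scaling to the reads on genes moved the median over all genes from −0.0028 to 0.20 on the log2 scale, and the members shifted with it (Tgfa 0.91, Egfr −0.05, Erbb3 −0.35, Errfi1 −0.08). Over all genes, the pseudocount of 1 FPKM gave 317 upregulated and 88 downregulated genes, against 782 and 253, and omission of 1 liver gave 492 (without METTL3-HKD 1) to 960 upregulated and 94 (without METTL3-Flox 3) to 341 downregulated genes. Areg rests on 91 reads in all and Epgn on at most 67 per liver, which limits their precision.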
